A study of Mus musculus with 12 samples.

Results

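Lipogenic enzymes and Srebf1 make up a set of 10 genes of hepatic fatty acid synthesis: Srebf1, Acly, Acaca, Acacb, Fasn, Scd1, Elovl6, Me1, Thrsp and Pnpla3. Each was read from the transcript cluster that is annotated to that gene alone and, where a gene had more than 1 such cluster, from the one of highest mean signal. All 10 were found among the 19938 genes with a cluster. The transcripts were measured on 12 microarrays of total liver RNA from mice aged 2 weeks, with 3 arrays (A, B and C) in each of 4 genotypes. The genotypes are Stat3Fl/Fl (floxed), Stat3Δhc, Stat3Fl/FlMdr2-/- (Mdr2-/- floxed) and Stat3Δhc Mdr2-/- (Mdr2-/- Stat3Δhc). The livers labelled Stat3Δhc are those with the floxed Stat3 deleted; the labels do not spell out hc. The Cre line, the genetic background and the feeding state of the mice are not given in the sources used here. The study asked which pathways change in livers that lack both genes and develop cholestasis.

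Newly made fatty acids start from citrate, which ATP-citrate lyase (Acly) splits to acetyl-CoA in the cytosol. Acetyl-CoA carboxylases make malonyl-CoA from it, fatty acid synthase (Fasn) builds palmitate with NADPH that malic enzyme (Me1) helps to supply, and Elovl6 and Scd1 lengthen and desaturate the product. Srebf1 encodes the transcription factor SREBP-1, which is held in the endoplasmic reticulum by Insig proteins and, once cut free, switches on these enzyme genes in response to insulin. Stat3 encodes a transcription factor of cytokine and growth hormone signalling. Mdr2 is the product of Abcb4 and moves phospholipid into bile; its loss causes bile duct injury. Milk is rich in fat, and lipogenesis in rodent liver is known to be low before weaning.

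The windows around annotated transcription starts are shown for the 4 genes whose transcript differed in at least 1 comparison, and for Fasn, the central enzyme of the pathway, which differed in none. They come from RefSeq on GRCm38.p6, hold 300 bases and are written 5′ to 3′ on the gene's strand. Of the 10 genes, 9 had an entry, with 12 windows in all; Scd1 had none. Capitals mark matches of CCAAT, the box bound by NF-Y, and of GGGCGG, the GC box, read on both strands (ATTGG and CCGCCC in the reverse). The Srebf1 window is that of the most downstream of its 3 listed starts, chr11:60210422-60210721 on the minus strand. The Acacb window is chr5:114165268-114165567 (plus), that of Me1 is chr9:86695865-86696164 (minus), that of Elovl6 is chr3:129532136-129532435 (plus) and that of Fasn is chr11:120824498-120824797 (minus).
Srebf1: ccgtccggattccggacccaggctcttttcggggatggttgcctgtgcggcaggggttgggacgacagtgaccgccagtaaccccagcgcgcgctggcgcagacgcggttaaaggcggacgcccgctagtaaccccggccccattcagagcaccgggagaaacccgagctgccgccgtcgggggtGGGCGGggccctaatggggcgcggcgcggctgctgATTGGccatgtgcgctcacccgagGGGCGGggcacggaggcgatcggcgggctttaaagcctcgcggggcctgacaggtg
Acacb: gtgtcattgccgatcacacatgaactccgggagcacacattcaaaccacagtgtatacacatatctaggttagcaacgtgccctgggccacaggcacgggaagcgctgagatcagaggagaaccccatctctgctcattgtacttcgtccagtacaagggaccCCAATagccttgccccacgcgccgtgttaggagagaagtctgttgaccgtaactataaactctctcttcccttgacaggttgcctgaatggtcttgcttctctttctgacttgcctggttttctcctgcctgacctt
Me1: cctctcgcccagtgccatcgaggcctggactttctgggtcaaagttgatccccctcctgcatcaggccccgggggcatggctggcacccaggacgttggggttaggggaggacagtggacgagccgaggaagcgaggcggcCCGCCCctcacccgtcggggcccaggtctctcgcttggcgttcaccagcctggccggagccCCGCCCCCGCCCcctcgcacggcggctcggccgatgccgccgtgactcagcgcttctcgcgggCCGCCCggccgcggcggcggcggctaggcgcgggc
Elovl6: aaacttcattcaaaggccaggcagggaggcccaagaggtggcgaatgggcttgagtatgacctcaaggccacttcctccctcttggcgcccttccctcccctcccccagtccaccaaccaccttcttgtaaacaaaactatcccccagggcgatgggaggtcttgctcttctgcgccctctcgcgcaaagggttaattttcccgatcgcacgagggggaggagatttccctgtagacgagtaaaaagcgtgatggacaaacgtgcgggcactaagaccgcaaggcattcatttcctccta
Fasn: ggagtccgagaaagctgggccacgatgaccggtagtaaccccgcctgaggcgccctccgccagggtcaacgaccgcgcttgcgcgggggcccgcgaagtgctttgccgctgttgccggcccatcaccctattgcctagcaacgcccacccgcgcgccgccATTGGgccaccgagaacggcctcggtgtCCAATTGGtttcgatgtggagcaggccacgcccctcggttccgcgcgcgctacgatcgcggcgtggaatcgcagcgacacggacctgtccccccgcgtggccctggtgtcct

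CCAAT was found in 8 of the 12 windows, from 7 genes, against 37.4% of all 32851 RefSeq windows of this length. GGGCGG was found in 5 windows, from 4 genes, against 35.7% of all windows. The Srebf1 window holds 1 CCAAT match and 2 GGGCGG matches. The Fasn window holds 3 CCAAT matches, of which 2 overlap on opposite strands. The Me1 window shown holds 4 GGGCGG matches, all in the reverse orientation, and no CCAAT. Another Me1 window, at a more downstream start and not shown, holds 1 CCAAT match and no GGGCGG. The Elovl6 window holds 0 of either motif. The other 3 motifs searched were TTCNNNGAA (the STAT site), TCACNCCAC (a sterol regulatory element) and CACGTG (an E-box), and each had 0 matches in the 12 windows. They were found in 8.3%, 1.24% and 7.15% of all windows. These letter matches describe the windows and do not show that a factor binds there.

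Several features of the arrays move with the genotypes and bear on each result below. Stat3 ran from 9.19 to 9.54 log2 in the floxed arrays and from 7.69 to 8.12 in the deleted ones, so the signal followed the sample titles, against a source name that exchanges the labels of both Mdr2-/- genotypes. Abcb4, the gene of Mdr2, ran from 10 to 10.28 without the Mdr2 knockout and from 8.87 to 9.36 with it. Its log2 change with Mdr2 loss was -0.98 in floxed and -1.08 in Stat3Δhc liver. The 10 measured hepatocyte markers averaged 12.43 to 12.79 in all 12 arrays; with Mdr2 loss 2 of them fell in floxed liver and 3 in Stat3Δhc liver, among them Fabp1 by 0.43 and 0.79. Xist was high and Y-linked transcripts low in the 3 Mdr2-/- floxed arrays and in Mdr2-/- Stat3Δhc array A, and the reverse held in the other 8. The mean of 14 skeletal muscle markers was 8.53 to 9.36 without the Mdr2 knockout and 5.49 to 5.91 with it. The mean of 10 exocrine pancreas markers was 7.85 to 10.45 in arrays B and C of floxed and of Stat3Δhc liver, and 5.62 to 6.14 in the other 8. Among 8 measured adipocyte markers, Adipoq and Lep lay below the 25th percentile of every array. Fabp4 and Car3 lay above the 40th percentile in all 12 arrays, Retn in 10, Plin1 in 7, and Ucp1 and Cidea in 1 each. Ucp1 reached 6.89 and Cidea 5.78 in Stat3Δhc liver, against at most 5.06 and 5.34 in the other genotypes. Car3 changed by -1.32 with Mdr2 loss in floxed liver and by 0.95 with deletion of Stat3 on the knockout. Fabp4 changed by -0.87 with Mdr2 loss in Stat3Δhc liver. The mean of the adipocyte list was 6.15 to 6.71 without the knockout and 5.82 to 6.22 with it, and was highest in Stat3Δhc array C.

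Values are log2 signals, and a difference of 1 is a doubling. A gene is called changed where the Benjamini-Hochberg adjusted p of limma's moderated test, taken over all 13977 genes tested, is under 0.05. All 10 genes passed the filter on low signal. The lowest were Thrsp, Acacb and Pnpla3, whose arrays ranged over percentiles 38 to 77, 43 to 59 and 43 to 63 of all genes. Standard errors (SE) and 95% intervals come from the same fit, and each genotype has n = 3 arrays. The labels do not say whether the 3 arrays are 3 animals, so the p-values measure only the spread between these arrays. Signals of different genes come from different probes and are not set against each other. In whole liver, fewer cells of a type and less RNA per cell cannot be told apart. Each genotype enters more than 1 comparison, so the comparisons are not independent of each other.

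Of the 10 genes, 4 were called in at least 1 comparison: Srebf1, Acacb, Me1 and Elovl6. Loss of Mdr2 lowered Srebf1 and Acacb on both Stat3 backgrounds. Deletion of Stat3 raised Acacb with and without the Mdr2 knockout, and lowered Srebf1 and Me1 on the knockout. Acly, Acaca, Fasn, Scd1, Thrsp and Pnpla3 were called in none of the comparisons.

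**Figure D1:**
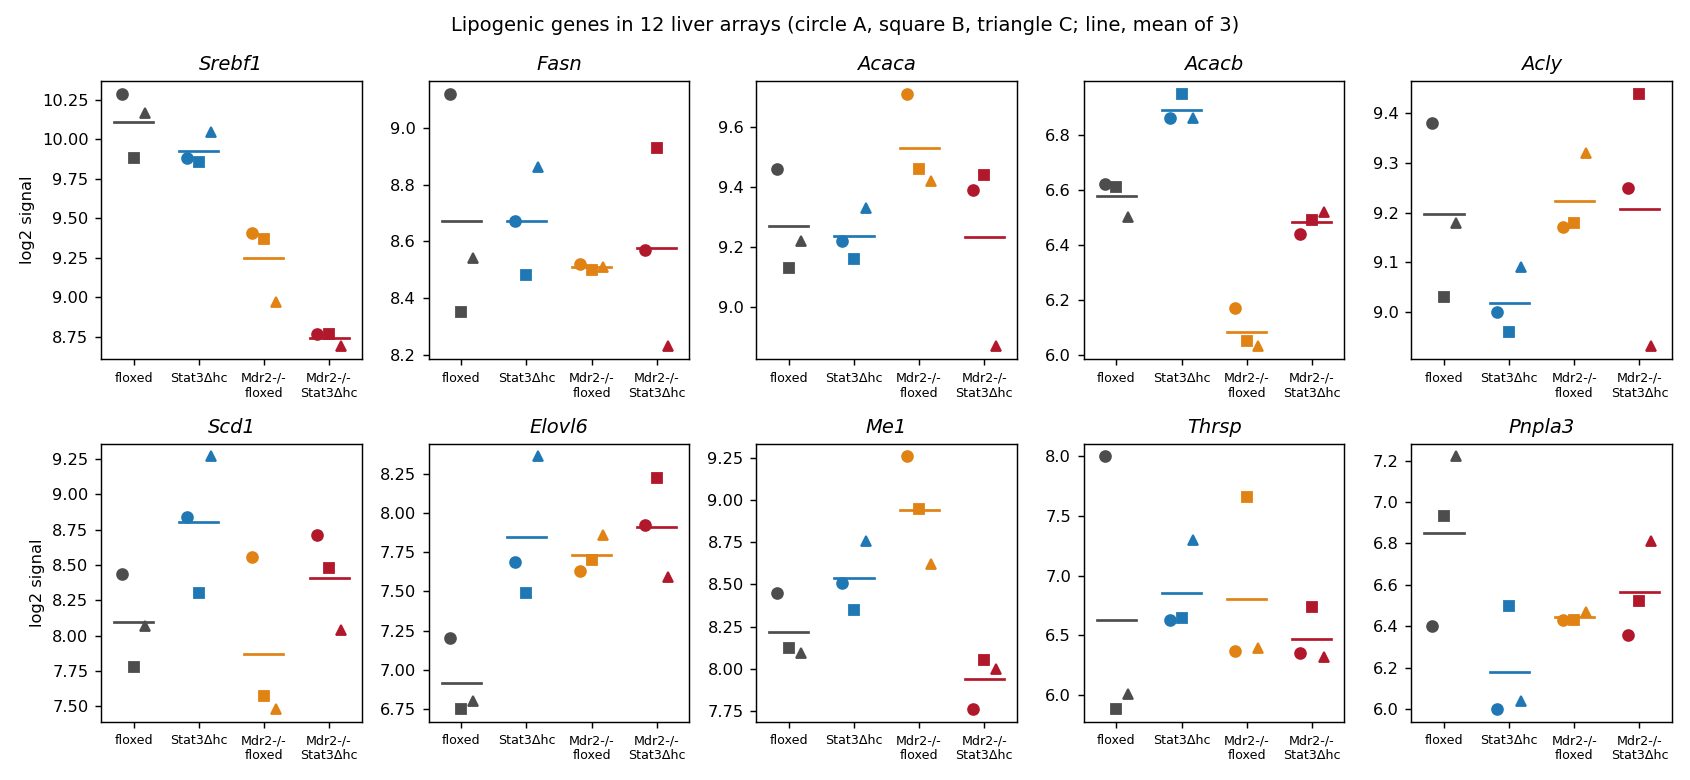
Log2 signal (y axis, own scale in each panel) of the 10 genes in the 4 genotypes (x axis); circles, squares and triangles are arrays A, B and C, and lines are means of 3. Srebf1 steps down from a mean of 10.11 in floxed to 8.74 in Mdr2-/- Stat3Δhc liver, and Me1 is highest in Mdr2-/- floxed liver (8.94) and lowest in Mdr2-/- Stat3Δhc liver (7.94).

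Srebf1 encodes the regulator of the pathway and had the largest called fall of the 10 genes, in Mdr2-/- Stat3Δhc against Stat3Δhc liver. Its log2 signal was 10.29, 9.88 and 10.17 in floxed arrays A, B and C and 9.88, 9.86 and 10.05 in the Stat3Δhc arrays. It was 9.41, 9.37 and 8.97 in Mdr2-/- floxed liver and 8.77, 8.77 and 8.69 in Mdr2-/- Stat3Δhc liver. Every array with the knockout lay below every array without it, and the Mdr2-/- Stat3Δhc arrays lay below the Mdr2-/- floxed ones. The floxed and Stat3Δhc arrays overlapped.

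With Mdr2 loss, Srebf1 fell 1.82-fold in floxed liver (log2 change -0.86, SE 0.13, limma adjusted p = 0.000951). In Stat3Δhc liver it fell 2.28-fold (-1.19, SE 0.13, limma adjusted p = 8.39e-05). This second fall kept its call in all 24 alternative settings tried, among them the fit on Y-linked arrays only. The fit without the 4 pancreas-high arrays left 1 Stat3Δhc array, and no setting adjusted for the muscle transcripts. With deletion of Stat3 on the knockout Srebf1 fell 1.42-fold (-0.5, SE 0.13, limma adjusted p = 0.0393). That call was lost in 6 of the 12 fits that left out 1 array, namely without Mdr2-/- floxed A or B, Mdr2-/- Stat3Δhc B or C, Stat3Δhc A or floxed C, with adjusted p up to 0.128. It was also lost in 6 of the 11 other settings: with no filter (0.0542), cyclic loess (0.056), the letter block (0.0648), the sex covariate (0.402), only the groups compared (0.0867) and the pancreas-high arrays left out (0.0867). Without the knockout the Stat3 change was -0.18 (95% interval -0.45 to 0.1), and the difference of the Stat3 effects, -0.32 (95% interval -0.71 to 0.07), was not called.

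Acacb encodes the carboxylase of the outer mitochondrial membrane, whose malonyl-CoA restrains fatty acid entry into mitochondria; the gene is also known for its expression in muscle. Its log2 signal was 6.62, 6.61 and 6.5 in floxed liver and 6.86, 6.95 and 6.86 in Stat3Δhc liver. It was 6.17, 6.05 and 6.03 in Mdr2-/- floxed liver and 6.44, 6.49 and 6.52 in Mdr2-/- Stat3Δhc liver. All Stat3Δhc arrays lay above the floxed arrays of the same Mdr2 status, and floxed and Mdr2-/- Stat3Δhc liver overlapped. These arrays spread little, with an SD within genotype of 0.06, lower than in all but 2.9% of tested genes.

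Deletion of Stat3 raised Acacb by 0.4 on the knockout (1.32-fold, SE 0.08, limma adjusted p = 0.0106). It raised it by 0.31 without the knockout (1.24-fold, SE 0.08, limma adjusted p = 0.0495), next to the threshold: this call was lost in 10 of the 12 fits that left out 1 array, all but those without floxed A or Mdr2-/- Stat3Δhc C. The rises differed by 0.09 (95% interval -0.14 to 0.32), which was not called. Mdr2 loss lowered Acacb by 0.5 in floxed liver (log2 change -0.5, SE 0.08, limma adjusted p = 0.00121) and by 0.41 in Stat3Δhc liver (-0.41, SE 0.08, limma adjusted p = 0.00346). Both of these falls kept their call whichever array was left out.

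Acaca, the cytosolic carboxylase and the close relative of Acacb, makes the malonyl-CoA used for synthesis. Its log2 signal was 9.46, 9.13 and 9.22 in floxed, 9.22, 9.16 and 9.33 in Stat3Δhc, 9.71, 9.46 and 9.42 in Mdr2-/- floxed and 9.39, 9.44 and 8.87 in Mdr2-/- Stat3Δhc liver. The genotypes overlapped in all 4 comparisons on this cluster. The largest change was -0.29 with deletion of Stat3 on the knockout (95% interval -0.6 to 0.02, limma adjusted p = 0.201). A second cluster annotated to Acaca gave 8.74, 8.5 and 8.6 in Mdr2-/- floxed and 8.4, 8.49 and 7.65 in Mdr2-/- Stat3Δhc liver, which did not overlap. With the mean of both clusters this change was -0.36 (limma adjusted p = 0.169), also uncalled.

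Me1 encodes cytosolic malic enzyme, a source of NADPH, and was the gene of the set whose Stat3 effect turned most with the Mdr2 genotype. Its log2 signal was 8.45, 8.12 and 8.09 in floxed liver and 8.51, 8.35 and 8.76 in Stat3Δhc liver. It was 9.26, 8.95 and 8.62 in Mdr2-/- floxed liver and 7.76, 8.05 and 8 in Mdr2-/- Stat3Δhc liver. Mdr2-/- floxed liver was the highest genotype and Mdr2-/- Stat3Δhc liver the lowest, with no overlap between these. A second cluster annotated to Me1 gave 9.09, 8.88 and 8.36 against 7.42, 7.7 and 7.75 for the same arrays.

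Deletion of Stat3 lowered Me1 2.01-fold on the knockout (log2 change -1.01, SE 0.16, limma adjusted p = 0.00492), and the call held whichever array was left out. Without the knockout the change was 0.32 (95% interval -0.03 to 0.67, limma adjusted p = 0.346). Mdr2 loss raised Me1 1.65-fold in floxed liver (0.72, SE 0.16, limma adjusted p = 0.0104) and lowered it 1.52-fold in Stat3Δhc liver (-0.6, SE 0.16, limma adjusted p = 0.0225). The last call was lost without Stat3Δhc A (adjusted p = 0.0579), Stat3Δhc C (0.103) or Mdr2-/- Stat3Δhc A (0.06). The difference of the effects was -1.33 (SE 0.23, limma unadjusted p = 5.92e-05, adjusted p = 0.0699), just outside the threshold. It passed without floxed A (adjusted p = 0.0308) and without Mdr2-/- floxed C (0.0188).

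Elovl6 encodes the elongase that takes palmitate to stearate. Its log2 signal was 7.2, 6.75 and 6.8 in floxed liver, below every array of the other genotypes. It was 7.69, 7.49 and 8.36 in Stat3Δhc, 7.63, 7.7 and 7.86 in Mdr2-/- floxed and 7.92, 8.22 and 7.59 in Mdr2-/- Stat3Δhc liver, and these overlapped each other.

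Elovl6 rose 1.9-fold with deletion of Stat3 without the knockout (log2 change 0.93, SE 0.21, limma adjusted p = 0.0376). It rose 1.76-fold with Mdr2 loss in floxed liver (0.82, SE 0.21, limma adjusted p = 0.0228). Where the other gene was already lost the changes were not called, at 0.18 with Stat3 deletion on the knockout (95% interval -0.27 to 0.64) and 0.07 with Mdr2 loss in Stat3Δhc liver (-0.39 to 0.52). The difference of the Stat3 effects was -0.75 (SE 0.3, limma adjusted p = 0.261) and was not called.

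The Elovl6 rises rest on few arrays. Stat3Δhc array C held both the highest Elovl6 of the 12 (8.36) and the highest mean of pancreas markers (10.45). Its mean of adipocyte markers (6.71) was also the highest of the 12. Without the 4 pancreas-high arrays, which leaves 1 floxed and 1 Stat3Δhc array assumed to vary like the others, the Stat3 change was 0.48 (limma adjusted p = 1) and the Mdr2 change was 0.53 (0.315). The Stat3 call was also lost without Stat3Δhc A or C, floxed B or C, or Mdr2-/- floxed B or C, with adjusted p up to 0.177. The Mdr2 call was lost without floxed B or C or Mdr2-/- floxed B or C, with adjusted p up to 0.0886. The part of pancreas or adipocyte transcripts in these values was not tested.

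**Figure D2:**
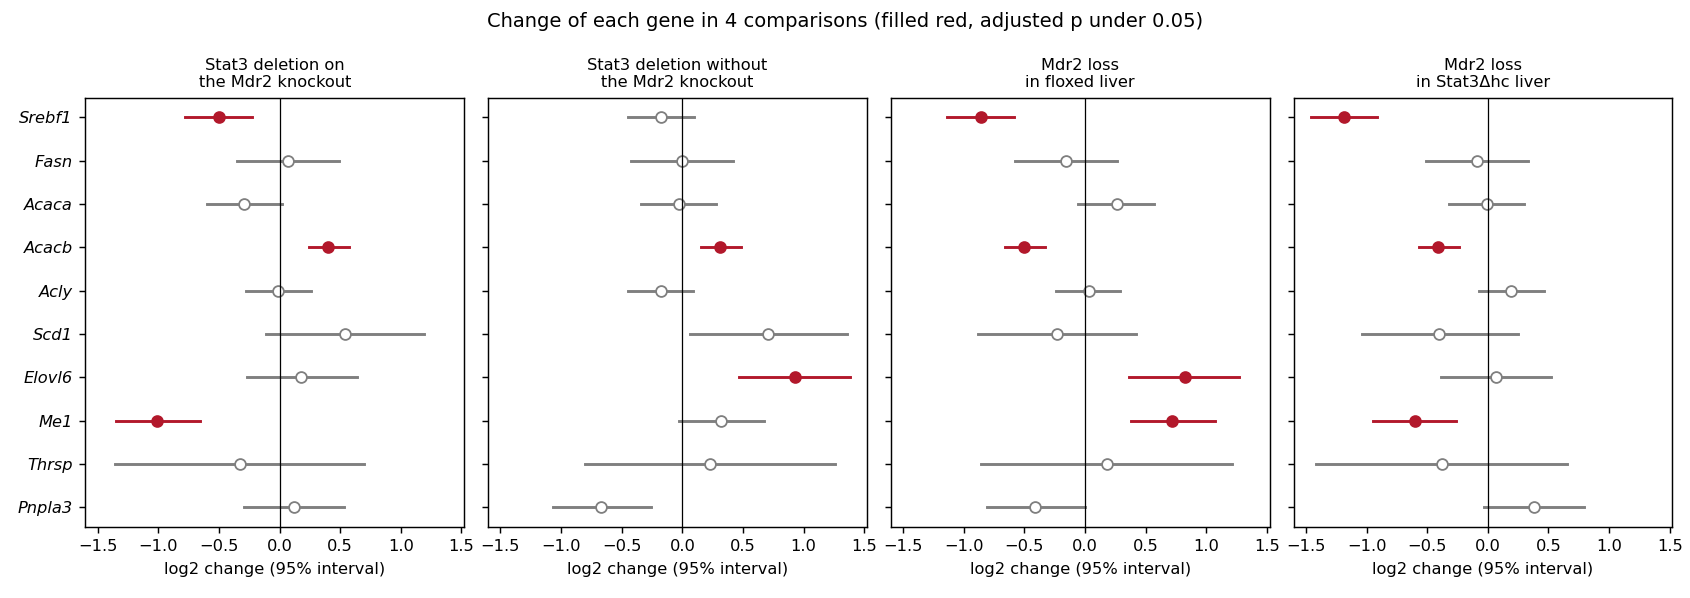
Log2 change (x axis, point with 95% interval) of each gene (y axis) in 4 comparisons of 3 against 3 arrays; filled red marks an adjusted p under 0.05 and open grey the rest. Srebf1 lies left of 0 in 3 panels with calls, Me1 is called on both sides of 0, and the Thrsp intervals are the widest.

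Fasn showed no call. Its log2 signal was 9.12, 8.35 and 8.54 in floxed, 8.67, 8.48 and 8.86 in Stat3Δhc, 8.52, 8.5 and 8.51 in Mdr2-/- floxed and 8.57, 8.93 and 8.23 in Mdr2-/- Stat3Δhc liver. Floxed arrays A and B lay farther apart than the means of any pair of genotypes. The intervals ran from -0.58 to 0.26 for Mdr2 loss in floxed liver and from -0.51 to 0.33 in Stat3Δhc liver, so a fall of Fasn as large as the -0.86 or -1.19 of Srebf1 lies outside them.

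Acly was also uncalled, at 9.38, 9.03 and 9.18 in floxed, 9, 8.96 and 9.09 in Stat3Δhc, 9.17, 9.18 and 9.32 in Mdr2-/- floxed and 9.25, 9.44 and 8.93 in Mdr2-/- Stat3Δhc liver. The floxed, Mdr2-/- floxed and Mdr2-/- Stat3Δhc ranges overlapped, and Stat3Δhc liver was the lowest by mean. The Mdr2 loss intervals for Acly ran from -0.24 to 0.29 in floxed and from -0.07 to 0.46 in Stat3Δhc liver.

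Scd1, the desaturase that makes oleate, varied more between arrays of a genotype than 99.1% of tested genes (SD 0.45). It read 8.44, 7.78 and 8.07 in floxed and 8.84, 8.3 and 9.27 in Stat3Δhc liver. On the knockout it read 8.56, 7.57 and 7.48 in floxed and 8.71, 8.48 and 8.04 in Stat3Δhc liver. The means of Stat3Δhc liver were the higher on both backgrounds, and the arrays overlapped. The changes were 0.71 without the knockout (95% interval 0.06 to 1.36, limma adjusted p = 0.255) and 0.54 on it (-0.11 to 1.19, adjusted p = 0.246).

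Thrsp, the thyroid-responsive Spot 14 gene of lipogenic tissue, had the widest spread of the set, with an SD within genotype of 0.73. Floxed array A stood at 8 against 5.88 and 6.01 for B and C, and Mdr2-/- floxed array B stood at 7.66 against 6.37 and 6.39 for A and C. Stat3Δhc liver gave 6.63, 6.64 and 7.3, and Mdr2-/- Stat3Δhc liver 6.35, 6.74 and 6.32. Its intervals spanned about a log2 unit on each side, for example -0.86 to 1.21 for Mdr2 loss in floxed liver.

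Pnpla3 encodes a lipid droplet protein that SREBP-1 is known to induce. It read 6.4, 6.93 and 7.22 in floxed, 6, 6.5 and 6.04 in Stat3Δhc, 6.43, 6.43 and 6.47 in Mdr2-/- floxed and 6.36, 6.52 and 6.81 in Mdr2-/- Stat3Δhc liver. The genotypes overlapped, with floxed liver the highest by mean. The change with deletion of Stat3 was -0.67 without the knockout (SE 0.19, limma adjusted p = 0.082) and 0.12 on it (adjusted p = 0.685). Without floxed array A the former was -0.89 (adjusted p = 0.00895) and passed, and so did the change with Mdr2 loss in floxed liver, at -0.63 (adjusted p = 0.0334).

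As counts, deletion of Stat3 on the knockout called 3 of the 10 genes (1 up, 2 down), where 5.77% of all tested genes were called. Without the knockout it called 2 (both up) against 2.58%, and the difference of the effects called 0 against 0.0715%. At an unadjusted limma p under 0.05 the difference held 3 of the 10, and 2360 of all 13977 tested genes. Mdr2 loss called 4 in floxed liver (2 up, 2 down) against 12.8% of all genes, and 3 in Stat3Δhc liver (all down) against 17.4%. Groups did not overlap for 3, 2, 4 and 3 genes in the comparisons other than the difference, against 28.6%, 25.1%, 33.3% and 37.2% of all genes. These counts of non-overlap are close to the background shares. Without the 4 pancreas-high arrays the counts of calls were 1, 0, 0, 1 and 1 in the order given, and Srebf1 with Mdr2 loss was the call kept on both Stat3 backgrounds.

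The median log2 change of the 10 genes, taken with its sign, lay near that of all genes in most comparisons. It was 0.03 and 0.11 for deletion of Stat3 with and without the knockout, against -0.026 and -0.006 over all genes. It was -0.07 and -0.24 for Mdr2 loss in floxed and Stat3Δhc liver, against -0.004 and -0.02. The enzymes changed with both signs beside the falls of Srebf1. With Mdr2 loss in Stat3Δhc liver 7 of the 10 changes were negative, and in floxed liver 5 were negative while Me1 and Elovl6 were called up.

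Within 3 of the genotypes at least 1 array was the highest or lowest for 7 or more of the 10 genes. Floxed array A was the highest of its 3 for 9 of the 10 genes (all but Pnpla3), where it was the highest for 33.6% of all tested genes. Stat3Δhc array C was the highest for 8 genes (47.5% of all genes) and array B the lowest for 7 (45.7%). Mdr2-/- Stat3Δhc array C was the lowest for 7 (47.7%), and floxed array B for 7 (32.3%). In Mdr2-/- floxed liver the order was more mixed. Array A was the highest for 6 genes (36.6% of all genes) and the lowest for 3 (33.4%). Array C was the lowest for 5 (32.7%) and the highest for 3 (30.3%). Floxed A had the lowest pancreas mean of its genotype (5.94) and Stat3Δhc C the highest (10.45). Floxed B (9.47) and Stat3Δhc B (8.5), each the lowest of its genotype for 7 genes, were both pancreas-high. Stat3Δhc C also had the highest mean of adipocyte markers (6.71). The part of pancreas or adipocyte transcripts in this order was not tested.

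**Figure D3:**
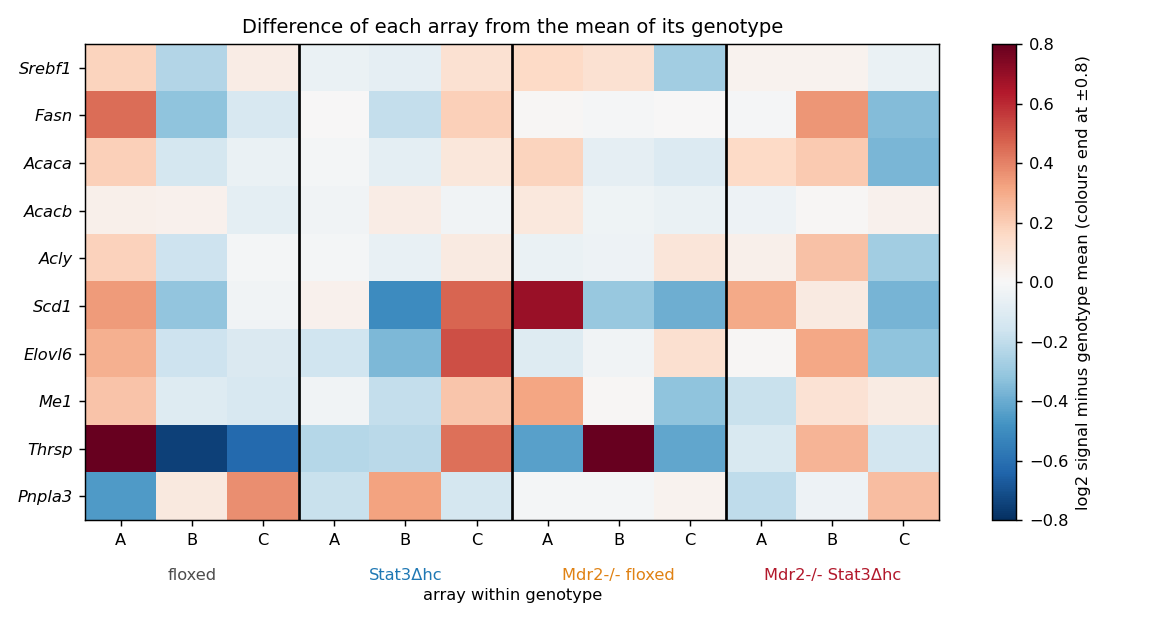
Log2 signal of each gene (rows) in each array (columns, A to C within genotype) minus the mean of its genotype; red is above and blue below, with colours ending at 0.8 on either side. Floxed column A is red for all rows but Pnpla3, and column C of Mdr2-/- Stat3Δhc liver is blue for 7 rows.

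The genes whose profile over the 12 arrays was closest to the mean centred profile of the 10 were Chic1 (Pearson r = 0.89), Cyp2b10 (0.86), Fam214a (0.82), Slc22a29 (0.81) and Gstm6 (0.79). The 12 arrays share genotypes and the other-tissue patterns above, 1785 genes with an SD of at least 0.3 were compared, and the correlations are given as a description without a test. The mean profile itself ran from 0.33 above its average in Stat3Δhc array C to 0.26 below it in Mdr2-/- Stat3Δhc array C.

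Skeletal muscle transcripts fell with the knockout beside Srebf1 and Acacb. Of 14 muscle markers, 14 were called lower in floxed liver (median change -3.35) and 13 in Stat3Δhc liver (-3.13). The muscle means ran from 8.53 to 9.36 without the knockout and from 5.49 to 5.91 with it, with no overlap. For deletion of Stat3, 0 of the 14 muscle markers were called on either background. Muscle RNA and Mdr2 loss cannot be told apart in these arrays, and the part of muscle RNA in the falls of Srebf1 and Acacb was not tested.

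Sex pattern and Mdr2 loss cannot be told apart in floxed liver, since all 3 floxed arrays were Y-linked in pattern and all 3 Mdr2-/- floxed arrays had high Xist. With the pattern as a covariate, which rests on array A against B and C of Mdr2-/- Stat3Δhc liver, 0 of the 4 calls in floxed liver were kept, while the values were -0.9 for Srebf1, -0.43 for Acacb, 0.8 for Elovl6 and 0.98 for Me1. The 3 calls of Stat3 deletion on the knockout were lost as well, at -0.48 for Srebf1 (limma adjusted p = 0.402), 0.36 for Acacb (0.229) and -1.18 for Me1 (0.0574). In Stat3Δhc liver the covariate kept the calls of Srebf1 and Acacb and lost that of Me1 (-0.52, limma adjusted p = 0.06). There Mdr2 loss could also be compared among Y-linked arrays only, and the 3 calls were kept. Srebf1 read 8.77 in the Xist-high array of Mdr2-/- Stat3Δhc liver and 8.77 and 8.69 in the others.

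**Figure D4:**
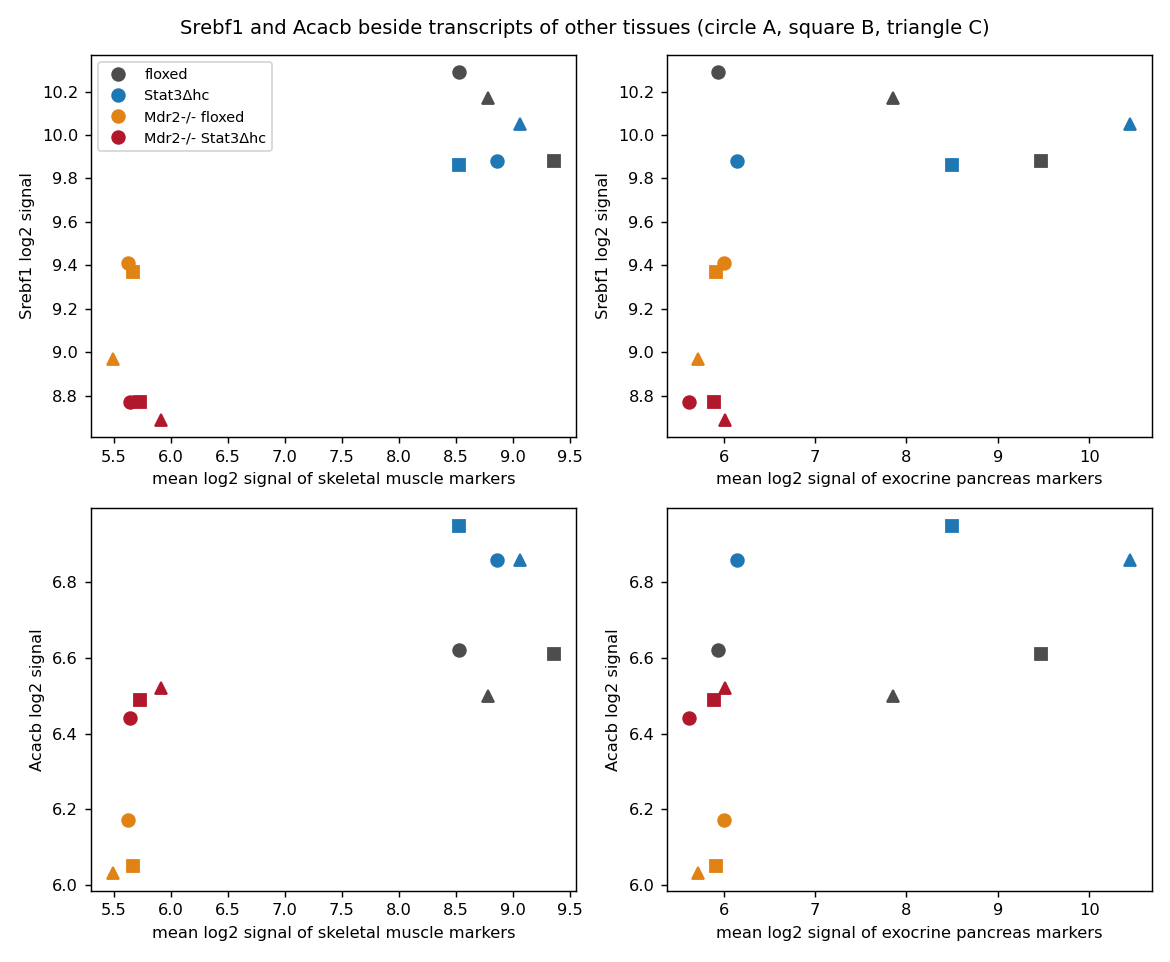
Log2 signal of Srebf1 (top) and Acacb (bottom) in each array (y axes) against the mean log2 signal of skeletal muscle markers (left) and exocrine pancreas markers (right); colours are genotypes, and circles, squares and triangles are arrays A, B and C. The muscle means separate into 5.49 to 5.91 with the knockout and 8.53 to 9.36 without it, whereas pancreas means are high in 4 arrays without the knockout.

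Other genes of the pathway were followed in lists. Among 14 tested regulators of lipogenesis, Mdr2 loss changed 3 in floxed liver (2 up, 1 down) and 3 in Stat3Δhc liver (2 up, 1 down), where 12.8% and 17.4% of all tested genes were called. Lpin1, a phosphatidate phosphatase and coactivator, was 7 to 7.76 in floxed and 9.13 to 9.73 in Mdr2-/- floxed liver, a 4.29-fold rise (log2 change 2.1, SE 0.28, limma adjusted p = 0.000576). In Stat3Δhc liver it rose 2.96-fold (1.57, SE 0.28, adjusted p = 0.00297). Mid1ip1, a relative of Thrsp that activates acetyl-CoA carboxylase, fell 1.86-fold in floxed liver and 1.96-fold in Stat3Δhc liver (adjusted p = 0.000116 and 5.55e-05). Its signal was 7.97 to 8.44 where Mdr2 was intact and 7.14 to 7.39 where it was lost.

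Insig2, which holds SREBP in the endoplasmic reticulum, ran from 11.31 to 11.44 in Mdr2-/- floxed liver and from 10.41 to 11.01 in the other genotypes. It rose with Mdr2 loss in floxed liver (0.79, SE 0.14, limma adjusted p = 0.0033) and fell with deletion of Stat3 on the knockout (-0.67, SE 0.14, adjusted p = 0.0193), the same directions as Me1. With Mdr2 loss in Stat3Δhc liver, where Me1 fell, Insig2 was not called (-0.0, limma adjusted p = 0.987). Insig1 went the other way and was not called. It changed by -0.93 with Mdr2 loss in floxed liver (limma adjusted p = 0.0554) and by 1.01 with deletion of Stat3 on the knockout (0.0606). The coactivator gene Ppargc1b rose by 0.46 with deletion of Stat3 on the knockout (SE 0.12, adjusted p = 0.0438). Mlxipl (ChREBP) and Nr1h3 (LXRα), named here for their role after their values were seen, changed by 0.08 and 0.07 with Mdr2 loss in floxed liver (SE 0.11 and 0.1) and were not called in any comparison.

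Of 10 tested genes that supply carbon and NADPH, Mdr2 loss changed 2 in floxed liver (1 up, 1 down; 12.8% of all genes) and 5 in Stat3Δhc liver (1 up, 4 down; 17.4%). The glucose transporter gene Slc2a2 rose on both backgrounds, by 0.74 and 0.62 (SE 0.09, limma adjusted p = 0.00032 and 0.000948). Khk, which phosphorylates fructose, fell by 0.67 (SE 0.11, adjusted p = 0.00163) and the liver pyruvate kinase gene Pklr by 0.53 (SE 0.12, adjusted p = 0.01) in Stat3Δhc liver. Idh1, the cytosolic NADPH-forming isocitrate dehydrogenase gene, fell by 0.38 and 0.47 on the respective backgrounds. Acss2, which makes acetyl-CoA from acetate, rose 1.85-fold with deletion of Stat3 on the knockout (0.89, SE 0.15, adjusted p = 0.00529), from 7.3 to 7.48 in Mdr2-/- floxed to 8.09 to 8.62 in Mdr2-/- Stat3Δhc liver.

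Of 12 tested genes of elongation and desaturation, Mdr2 loss raised 3 in floxed liver (12.8% of all genes called) and 1 in Stat3Δhc liver (17.4%), and lowered 0. Elovl7, an elongase of long saturated chains, was 5.2 to 5.86 without the knockout and 7.43 to 8.46 with it. It rose 5.42-fold in floxed liver (2.44, SE 0.18, limma adjusted p = 3.85e-06) and 5.22-fold in Stat3Δhc liver (2.38, SE 0.18, adjusted p = 4.51e-06). Fads2, the delta-6 desaturase gene, fell 1.48-fold with deletion of Stat3 without the knockout (-0.56, SE 0.13, adjusted p = 0.0426).

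Of 16 tested triglyceride and lipid droplet genes, Mdr2 loss raised 2 and lowered 4 in floxed liver (12.8% of all genes called), and raised 1 and lowered 4 in Stat3Δhc liver (17.4%). G0s2, the inhibitor of adipose triglyceride lipase, fell 2.26-fold in floxed liver (-1.18, SE 0.23, limma adjusted p = 0.00572) and 3.53-fold in Stat3Δhc liver (-1.82, SE 0.23, adjusted p = 0.00033). Mgll, which encodes monoacylglycerol lipase, fell by 0.62 in floxed and 1.06 in Stat3Δhc liver (SE 0.11, adjusted p = 0.00358 and 8.39e-05). Fitm1, known chiefly from muscle, fell by 0.91 and 1.38 beside the muscle markers. Lpin2, a relative of Lpin1, rose by 0.76 and 0.99 (SE 0.15, adjusted p = 0.00543 and 0.000988).

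Srebf1 is itself a target of the oxysterol receptor LXR, so 7 other LXR targets were read. Mdr2 loss lowered 2 and raised 0 in floxed liver (12.8% of all genes called), and lowered 2 and raised 1 in Stat3Δhc liver (17.4%). The falls were in Abcg5 and Abcg8, the paired sterol exporters of the canalicular membrane: Abcg5 fell by 0.5 and 0.88 (SE 0.12, limma adjusted p = 0.019 and 0.000633) and Abcg8 by 0.69 and 0.95 (SE 0.16, adjusted p = 0.0154 and 0.00231). Pltp rose by 0.25 in Stat3Δhc liver (adjusted p = 0.0427). The list's median change was 0.03 in floxed and -0.17 in Stat3Δhc liver, against -0.004 and -0.02 over all genes.

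**Figure D5:**
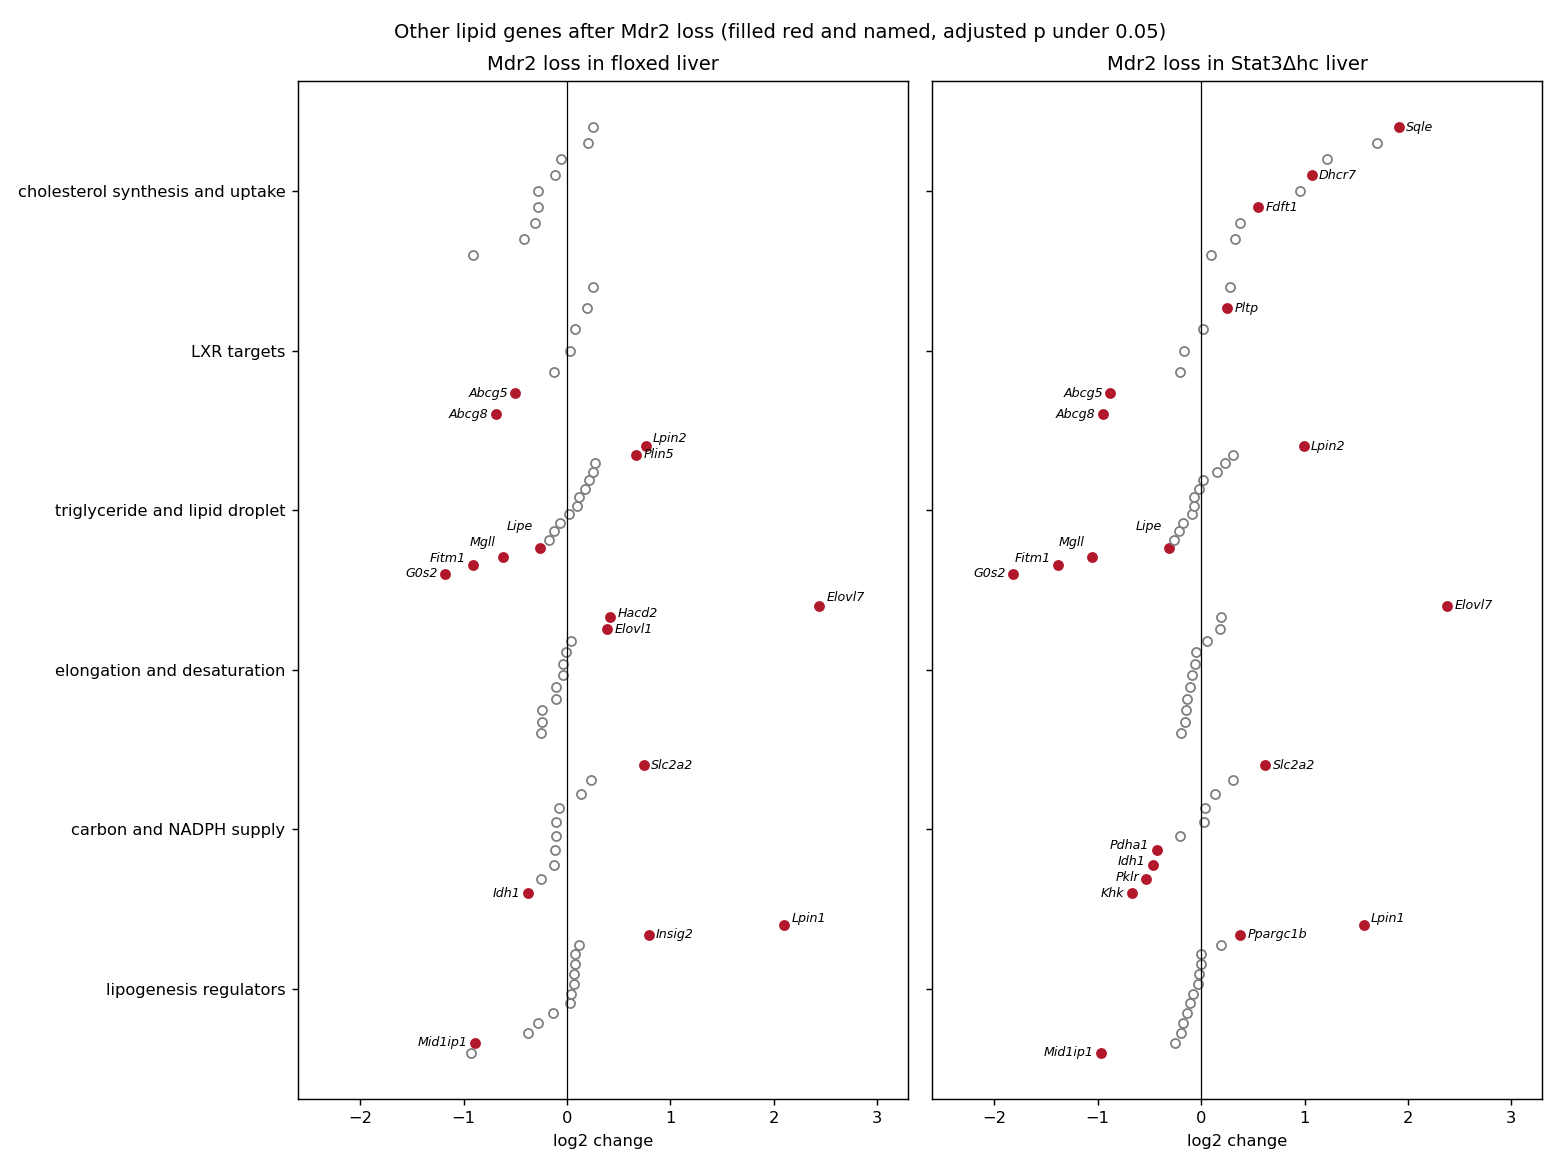
Log2 change with Mdr2 loss (x axis) of each tested gene of 6 lipid lists (y axis) in floxed (left) and Stat3Δhc liver (right), ordered by change within each list; filled red points with names have an adjusted p under 0.05. Elovl7 and Lpin1 lie farthest right in floxed liver (2.44 and 2.1), and G0s2 farthest left (-1.18).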

How the data were processed

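The authors deposited log2 signals; the submitters' processing notes name RMA without a version. RMA scales arrays to a common distribution, so a shift shared by all genes cannot be seen. The signals ran from 1.37 to 14.54. Of 35556 transcript clusters, 21789 name 1 gene. A gene was read from its cluster of highest mean and tested where 3 or more arrays exceeded their own 40th percentile (13977 genes). All 12 arrays, grouped by title, were fitted with limma 3.58.1 in R 4.3.3 (lmFit and eBayes, 8 residual degrees of freedom, prior degrees of freedom 4.82), with Benjamini-Hochberg adjustment at 0.05. The median SE was 0.11 for a comparison and 0.155 for a difference of effects. The fit was tested on simulated data. Alternatives were other filters, clusters, scalings, variance models and array weights, a letter block, the sex pattern, only the groups compared, and each array left out; leaving out the 4 pancreas-high arrays was chosen after seeing the data. Named genes are the 10, Stat3 and Abcb4, and up to 4 called genes of each list and comparison by size of change. The genes and lists were chosen with earlier results of these data known. Plots used matplotlib 3.10.9 under Python 3.11.15.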

Additional observations from a re-analysis of the deposited data

Results flagged for a closer look

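Me1 moved in opposite directions with Mdr2 loss: all 3 Mdr2-/- floxed arrays lay above the floxed arrays and all 3 Mdr2-/- Stat3Δhc arrays lay below the Stat3Δhc arrays. The difference of the Mdr2 effects, which equals that of the Stat3 effects, was -1.33 (SE 0.23, limma adjusted p = 0.0699), just outside the threshold. Both clusters annotated to Me1 gave this pattern, and the 3 Mdr2-/- floxed arrays and Mdr2-/- Stat3Δhc array A have high Xist. In the fit that adjusts for the sex pattern, the changes with Mdr2 loss were 0.98 in floxed (limma adjusted p = 0.2) and -0.52 in Stat3Δhc liver (0.06).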

How the results depend on the processing

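No called change of the 10 genes turned its sign in any of the 24 alternative settings; among all 1160 values recomputed for the 10 genes, 51 changed sign, each of an uncalled change. The counts of genes called, 3 for deletion of Stat3 on the knockout, 2 without it, 0 for the difference, 4 for Mdr2 loss in floxed liver and 3 for that in Stat3Δhc liver, moved as follows, and stood elsewhere as above. With no filter the count on the knockout was 2 and without it 1. With cyclic loess it was 2 on the knockout and 2 for Mdr2 loss in Stat3Δhc liver. With median centring the difference had 1 call (Me1). With trended, robust variances the count without the knockout was 1 and the difference had 1. With array weights, where Stat3Δhc A took a weight of 9.007, the count was 4 without the knockout, 2 for the difference and 6 for Mdr2 loss in Stat3Δhc liver. With the sex pattern as a covariate it was 0 on the knockout, 1 without it, 0 for Mdr2 loss in floxed liver and 2 for that in Stat3Δhc liver. With only the groups compared it was 1 on the knockout and 0 without it, and with Y-linked arrays only it was 0 without it. Without the pancreas-high arrays it was 1 on the knockout, 0 without it and 1 for Mdr2 loss on either Stat3 background. Leaving out each array gave 2 to 3, 0 to 3, 0 to 1, 3 to 5 and 2 to 3 in the order above. With the replicate block the count on the knockout was 2 and without it 0, and the others stayed at 0, 4 and 3. The letters do not pair the arrays: 18 same-letter correlations of deviations ran from -0.409 to 0.366, and 3 of 12 arrays were closest to one of their own letter. No scaling moved the median of all genes by more than 0.058. Over all tested genes, calls went from 806, 361, 10, 1785 and 2431 to 37, 329, 6, 102 and 2613 with the sex covariate, and to 2298, 2955, 567, 2330 and 5830 with array weights. They went to 473, 237, 3, 1453 and 1865 with the replicate block and to 230, 6, 1, 222 and 239 without the pancreas-high arrays. With only the groups compared they were 230, 289, 1662 and 1541, the difference having no such fit, and Y-linked arrays only gave 234 and 2313 for the comparisons this allowed. The difference had 6 with no filter and 23 with trended, robust variances. Leaving out each array gave 302 to 1475, 69 to 753, 0 to 64, 1105 to 2129 and 1156 to 2613. The 3 arrays per genotype limit the precision.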

Other observations

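Of 9 tested genes of cholesterol synthesis and uptake, which the related factor SREBP-2 drives, Mdr2 loss raised 3 in Stat3Δhc liver (17.4% of all genes called) and changed 0 in floxed liver (12.8%). Sqle, which encodes squalene epoxidase, rose 3.75-fold (log2 change 1.91, SE 0.45, limma adjusted p = 0.0123), Dhcr7 rose 2.09-fold (1.07, SE 0.25, adjusted p = 0.0133) and Fdft1 rose 1.47-fold (0.55, SE 0.18, adjusted p = 0.0491). The mean of the list was 8.21, 9.71 and 7.83 in Mdr2-/- Stat3Δhc arrays A, B and C, so that array B stood above the others, and 7.61 to 8.34 in the remaining 9 arrays. Array B was also the highest of its genotype for 6 of the 10 lipogenic genes, where it was the highest for 29.9% of all tested genes.

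Of 11 tested genes of the fasting response, Mdr2 loss raised 1 and lowered 1 in floxed liver (12.8% of all genes called), and raised 4 and lowered 1 in Stat3Δhc liver (17.4%). Angptl4, an inhibitor of lipoprotein lipase, rose 1.89-fold and 2.07-fold (limma adjusted p = 0.00818 and 0.0034). The gluconeogenic genes Pck1 and Ppargc1a rose by 0.5 and 0.76 in Stat3Δhc liver (adjusted p = 0.0435 and 0.0146). Pdk4, which restrains pyruvate dehydrogenase and is raised by fasting, fell 1.58-fold and 2.07-fold (adjusted p = 0.0266 and 0.00181), the opposite direction.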
